A study of Mus musculus with 6 samples.

Results

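The ferroptosis regulators are 8 genes taken by symbol, Gpx4, Slc7a11, Slc3a2, Acsl4, Lpcat3, Aifm2, Ncoa4 and Chac1, out of 21367 genes in the deposited table. Each symbol matched 1 gene. Ferroptosis is a form of cell death driven by iron-dependent peroxidation of polyunsaturated fatty acids in membrane phospholipids. Cells hold it back by importing cystine for glutathione, which the peroxidase GPX4 spends to reduce lipid peroxides, while lipid remodelling enzymes supply the fatty acids that peroxidize and ferritin turnover supplies the iron. Proximal tubule cells of the kidney are known to be prone to it after ischemia and reperfusion.

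The series compared whole left kidneys of 3 Ptpn6+/mev mice with those of 3 wild-type littermates, 1 mouse per library, by sequencing of poly-A mRNA, and asked how insufficiency of the phosphatase SHP-1 alters gene expression in renal ischemia-reperfusion injury (IRI). SHP-1 is encoded by Ptpn6, and Ptpn6+/mev mice are heterozygous for its viable motheaten allele, a change at a splice consensus site. The labels give the genotype of these samples as an SHP1 knockdown, and the allele is present in every cell, not in the kidney alone. All 6 mice were 7 weeks old, on a C57BL/6 background, lost the right kidney, had the left renal pedicle clamped for 34 min and were killed after 24 h of reperfusion. Kidneys without ischemia were not analysed here, so the values describe injured kidneys of the 2 genotypes and not the response to injury. The paper reported worse injury in the Ptpn6+/mev mice, with higher serum creatinine and urea nitrogen and more tubular damage, TUNEL staining and reactive oxygen species. Genotype and severity of injury therefore cannot be told apart in the values below.

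Levels are given as FPKM, fragments scaled to transcript length and to the total number of fragments, which allows genes to be compared with each other. Differences are log2 fold changes, Ptpn6+/mev minus wild-type, from the deposited counts in edgeR's quasi-likelihood test, and a gene was called at a Benjamini-Hochberg adjusted p (FDR) under 0.05 over the 13036 genes that passed the filter on low counts. The 6 libraries held 10271590 to 12361745 counts. The markers of the kidney's own cells were present, with all 8 proximal tubule, all 6 distal nephron and all 4 podocyte markers above 0 in every library. Of 9 injured tubule markers, 4 had an unadjusted p under 0.05 on the higher side and 1 on the lower in edgeR. The shares over all tested genes were 5.53% and 6.71%. Wild-type replicate 2 stood apart from the other 5 libraries, with a TMM scaling factor of 0.929 against 0.994 to 1.03 and the lowest value of all 6 libraries for 5 of 5 endothelial, 6 of 6 macrophage, 5 of 5 fibroblast and 4 of 4 podocyte markers. It was also the lowest for 3 of 5 neutrophil, 3 of 5 red cell, 3 of 9 injured tubule and 2 of 8 proximal tubule markers. It was the highest for 3 proximal tubule, 2 injured tubule and 2 distal nephron markers. Values per kidney are given in the order of the replicate numbers 1 to 3. Ptpn6 itself had 11.9, 14.7 and 13.6 FPKM in the Ptpn6+/mev kidneys, and 17.5, 10.9 and 15.4 FPKM in the wild-type kidneys. These ranges overlapped, and the log2 fold change of -0.19 (SE 0.17, FDR 0.715 in edgeR) did not pass the test. The paper examined the mutation by Sanger sequencing, SHP-1 protein by western blot and its mRNA, and describes SHP-1 expression as decreased in heterozygotes. Protein was not measured in the values given here. Because whole tissue was sequenced, fewer cells of a type and less RNA per cell cannot be told apart in any value below.

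The regulators spanned a wide range of levels. Gpx4 was the most abundant, with a mean over the 6 kidneys 1610-fold that of Slc7a11, the least abundant. Between them the mean FPKM placed Slc3a2, Lpcat3, Ncoa4, Acsl4, Aifm2 and Chac1 in falling order. Gpx4 exceeded Slc3a2 8.45-fold, Lpcat3 exceeded Ncoa4 1.85-fold, Ncoa4 exceeded Acsl4 3.00-fold, Aifm2 exceeded Chac1 5.43-fold and Chac1 exceeded Slc7a11 4.29-fold, and none of these pairs overlapped across the 6 libraries. Slc3a2 and Lpcat3 overlapped over the libraries, although Slc3a2 was the higher of the pair in 5 of 6. Acsl4 and Aifm2 could not be ranked, since Acsl4 was the higher in 2 of 6 libraries only.

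**Figure D1:**
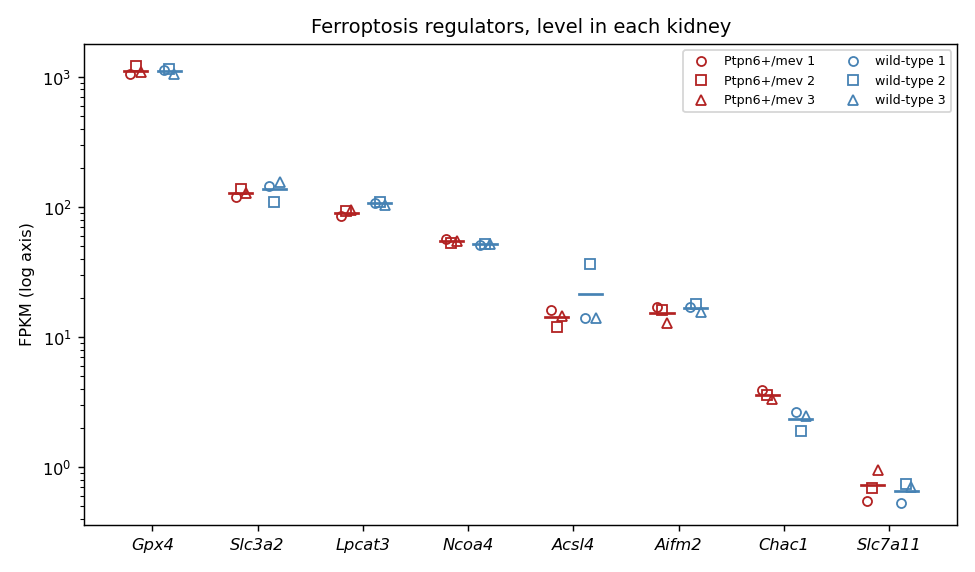
Level of each ferroptosis regulator in FPKM on a log axis, with 1 symbol per kidney and a short line at the mean of each group of 3. The genotypes lie close together compared with the 1610-fold range from Gpx4 to Slc7a11. They do not do so compared with every step between neighbours, since Acsl4 and Aifm2 overlap, as do Slc3a2 and Lpcat3. Wild-type replicate 2 is the only library far from its group, for Acsl4.

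None of the 8 regulators was called at an FDR under 0.05, a threshold that 0.138% of all tested genes passed, 0.069% in each direction. The count was 0 of 8 as well with edgeR's exact test, DESeq2 and a block on the replicate number, which called 2.99%, 3.04% and 0.00767% of all genes tested. Lpcat3, which loads polyunsaturated fatty acids into phospholipids, was lower in every Ptpn6+/mev kidney and had the smallest p. Chac1, which degrades glutathione, was higher in every Ptpn6+/mev kidney, with an estimated level 1.48-fold that of wild-type. These were the 2 of 8 regulators with an unadjusted p under 0.05, against 12.2% of all tested genes, and the 2 of 8 whose counts scaled to library size (CPM) did not overlap between the genotypes, against 19.4%. With 8 genes and these shares, neither count is a result about the regulators. The median log2 fold change over the 8 was -0.12, beside -0.002 over all tested genes, with 2 values above 0 and 6 below. Without wild-type replicate 2 that median was -0.001 and 0 of 8 were called, against 1.77% of all tested genes, while 3 of 8 had an unadjusted p under 0.05, against 17.3%. These were Slc3a2, Slc7a11 and Lpcat3.

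**Figure D2:**
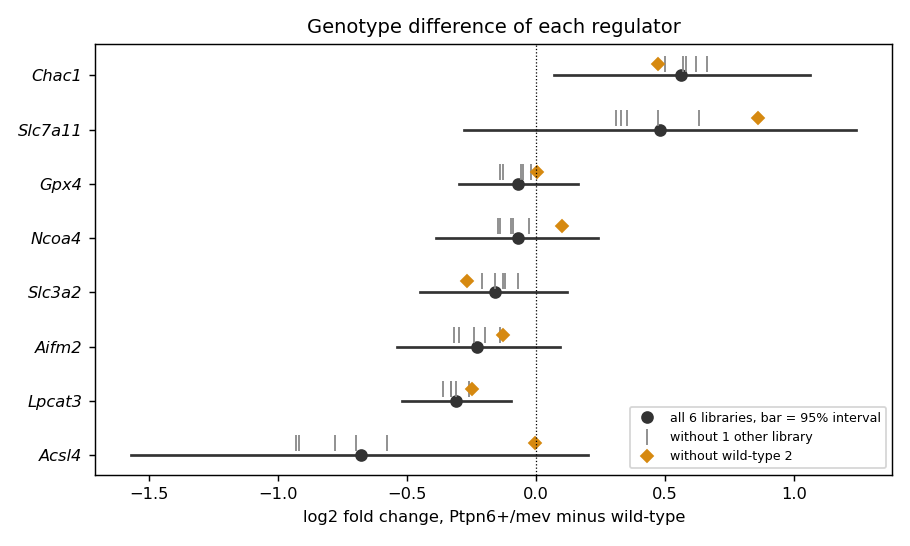
Log2 fold change of each regulator, Ptpn6+/mev minus wild-type, with its 95% interval from edgeR's quasi-likelihood test (dot and bar), the values with 1 other library left out (ticks) and the value without wild-type replicate 2 (diamond). The intervals of Lpcat3 and Chac1 alone exclude 0 before adjustment, and the value of Acsl4 without wild-type replicate 2 is -0.005.

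Gpx4, the selenoenzyme that reduces phospholipid hydroperoxides (chr10:80047166-80056439, GRCm38, plus strand), had 1050.2, 1214 and 1086 FPKM in the Ptpn6+/mev kidneys, against 1136, 1156 and 1049 FPKM in the wild-type kidneys. The genotypes overlapped fully, with means of 1117 ± 86.2 and 1114 ± 57.0 (SD, n = 3 each). The log2 fold change was -0.07, with a 95% interval from -0.30 to 0.16 (FDR 0.851, edgeR), so the 6 kidneys leave room for a fall of up to 0.30 or a rise of up to 0.16 on the log2 scale. Among its paralogs Gpx1, the cytosolic peroxidase, stood at a similar level, with 1131 to 1278 FPKM in Ptpn6+/mev and 1005 to 1097 in wild-type kidneys and a log2 fold change of 0.11 (SE 0.09, FDR 0.668). Gpx3, the secreted plasma peroxidase made by the proximal tubule, was the most abundant of the family and its groups did not overlap. It had 13201, 14672 and 13823 FPKM in Ptpn6+/mev against 17026, 18903 and 16041 in wild-type kidneys, with a log2 fold change of -0.37 (SE 0.11, unadjusted p = 0.0124, FDR 0.242 in edgeR). Gpx6 was lower in each Ptpn6+/mev kidney as well, at 5.86 to 6.57 FPKM against 7.22 to 19.1, but its log2 fold change of -1.01 became -0.39 without wild-type replicate 2, whose value was the highest. Gpx7 and Gpx8, peroxidases of the endoplasmic reticulum, had log2 fold changes of 0.40 and 0.23 with FDRs of 0.725 and 0.642. Gpx2 was below the filter on low counts and Gpx5 was listed at 0 in every library, where a floor of 3 counts corresponds to 0.243 to 0.292 CPM.

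Of 8 genes that place selenocysteine into proteins such as GPX4 or carry selenium, 0 were called, with a list median of -0.11. Only 1 had an unadjusted p under 0.05, on the lower side, against 6.71% of all tested genes. That gene was Lrp8, a receptor that takes up selenoprotein P, named after its values were seen, at -0.56 on the log2 scale (FDR 0.247, edgeR). Sephs2, which makes the selenium donor, had a log2 fold change of 0.06 (SE 0.10). Selenop, the selenium transport protein, had 901, 819 and 986 FPKM in Ptpn6+/mev and 626, 859 and 646 in wild-type kidneys. The groups overlapped through wild-type replicate 2, and the log2 fold change of 0.27 (FDR 0.550) became 0.48 (FDR 0.034, edgeR) without that library. With a different library left out, the FDR of Selenop in edgeR reached 0.856.

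Slc7a11 and Slc3a2 encode the light and the heavy chain of system xc-, the exchanger that imports cystine for glutathione. Slc7a11 (chr3:49892526-50443614, minus strand) was near the lower end of what these libraries could measure, with 52, 40 and 64 counts in Ptpn6+/mev and 27, 52 and 35 in wild-type kidneys. The counts overlapped, and the log2 fold change was 0.48, with a 95% interval from -0.28 to 1.24 (FDR 0.630, edgeR). Its FPKM were 0.55, 0.69 and 0.95 against 0.53, 0.74 and 0.70, and on log2(FPKM + 1) the difference was 0.06 (FDR 0.888, limma). Without wild-type replicate 2 the counts gave 0.86 (unadjusted p = 0.0127, FDR 0.160 in edgeR). Without wild-type replicate 1 they gave 0.31, and without the other 4 libraries in turn 0.33 to 0.63. The size of the Slc7a11 difference therefore depended on the unit and on single libraries.

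The distance between the count and the FPKM of Slc7a11 was measured as the transcript length that links them, the count divided by the FPKM and the library's total. For most genes this length is the same in every library, with a median ratio of the largest to the smallest of 1.02 over 11921 genes with at least 0.5 FPKM throughout. For Slc7a11 it ran from 4045 bases in wild-type replicate 3 to 9205 bases in Ptpn6+/mev replicate 1, a ratio of 2.28, which was above that of 99.2% of those genes. Ncoa4 came next with 2018 to 2634 bases, a ratio of 1.31, above 90.2% of them. Gpx4, Slc3a2, Acsl4, Lpcat3 and Chac1 stayed within 1.01, and Aifm2 within 1.08. Counts and FPKM therefore differed by little more than the scaling of the library for those 6 regulators, but not for Slc7a11 and Ncoa4.

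**Figure D3:**
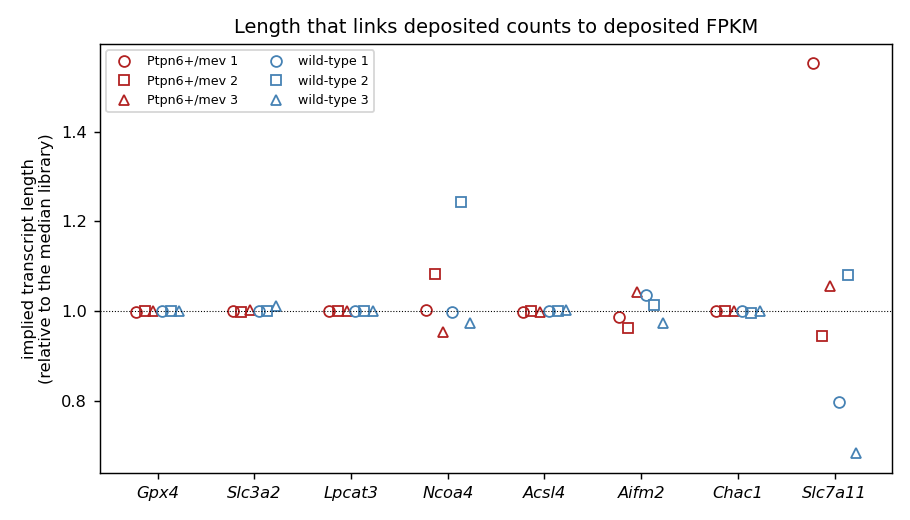
Transcript length implied by the deposited count and FPKM of each regulator, divided by its median over the 6 libraries, with 1 symbol per library. Slc7a11 and Ncoa4 spread away from 1, Aifm2 slightly, and the other 5 regulators lie on the line.

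Slc3a2 (chr19:8706882-8723369, minus strand), which pairs with several amino acid transporter light chains besides Slc7a11, had 119.5, 136 and 127 FPKM in Ptpn6+/mev and 144, 108 and 156 in wild-type kidneys. The groups overlapped because wild-type replicate 2 was the lowest of all 6, and the log2 fold change was -0.16, with a 95% interval from -0.45 to 0.12 (FDR 0.661, edgeR). Without that library it was -0.27 (unadjusted p = 0.0109, FDR 0.149), and without wild-type replicate 3, the highest, -0.07 (FDR 0.846). The ratio of Slc7a11 to Slc3a2 within a library, in which scaling cancels, was 0.0046, 0.00507 and 0.00746 against 0.00367, 0.00684 and 0.00448. The mean log2 ratio differed by 0.21 (exact permutation test, two-sided, p = 0.5, where 0.1 is the smallest p that 3 against 3 allow). Taken from counts the same difference was 0.68 (exact p = 0.3). By FPKM it was 0.00 without Ptpn6+/mev replicate 3, 0.01 without wild-type replicate 1 and 0.46 without wild-type replicate 2.

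The other light chains were mostly more abundant than Slc7a11. Slc7a7, the y+L chain of the basolateral membrane, had 36.5 to 56.8 FPKM in Ptpn6+/mev and 21.3 to 58.9 in wild-type kidneys. Slc7a8, a neutral amino acid exchanger, had 23.8 to 28.4 and 23.1 to 31.0. Neither differed beyond its spread, with log2 fold changes of 0.03 and -0.18. Slc7a5 and Slc7a6 lay between 2.98 and 7.51 FPKM with log2 fold changes of -0.11 and 0.08. Slc7a9, the cystine carrier of the tubular brush border, whose best-known partner is Slc3a1 rather than Slc3a2, had 15.4, 31.3 and 22.6 FPKM in Ptpn6+/mev and 37.7, 37.1 and 31.7 in wild-type kidneys. It was lower in every Ptpn6+/mev kidney, with a log2 fold change of -0.70 (SE 0.23, unadjusted p = 0.0173, FDR 0.279 in edgeR). Slc7a10 was below the filter.

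Of 15 genes for cystine and glutathione supply, 0 were called, while 6 had an unadjusted p under 0.05 on the lower side and 0 on the higher side, against 6.71% and 5.53% of all tested genes. The list median was -0.23, and 13 of 15 values lay below 0, beside -0.002 and 6581 of 13036 over all tested genes. Cth, which makes cysteine from cystathionine, had 51.9, 55.9 and 40.9 FPKM in Ptpn6+/mev and 70.4, 75.1 and 57.5 in wild-type kidneys, with no overlap and a log2 fold change of -0.52 (SE 0.16, FDR 0.238 in edgeR). Txnrd1, thioredoxin reductase, was lower in every Ptpn6+/mev kidney too, at 219 to 259 FPKM against 261 to 327. Its log2 fold change was -0.35 (FDR 0.251). Gclc and Gclm, the catalytic and modifier subunits of the rate-limiting enzyme of glutathione synthesis, had log2 fold changes of -0.25 and -0.29 with FDRs of 0.424 and 0.404, and overlapped. Gsr, which regenerates glutathione, stood at -0.05, and Ggt1, which splits it at the brush border, at -0.12. Mgst1, a membrane-bound glutathione transferase named here after its values were seen, had the smallest p of the list. It had 300.4, 292 and 292 FPKM against 468, 508 and 392, a log2 fold change of -0.71 (FDR 0.103), and an FDR of 0.0303 in edgeR without wild-type replicate 2. With a different library left out, that FDR reached 0.457.

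Chac1 (chr2:119351229-119354381, plus strand), a gamma-glutamyl cyclotransferase that breaks down glutathione and is widely used as a transcript readout of ferroptosis inducers that block system xc-, had 3.91, 3.58 and 3.34 FPKM in Ptpn6+/mev and 2.65, 1.89 and 2.46 in wild-type kidneys. The lowest Ptpn6+/mev kidney was above the highest wild-type kidney, as for 14.0% of all tested genes by FPKM and 9.64% by CPM. The counts behind these values were 66, 61 and 59 against 47, 34 and 50. The log2 fold change was 0.56, with a 95% interval from 0.07 to 1.06 (unadjusted p = 0.0301, FDR 0.335 in edgeR), and it ranged from 0.47 to 0.66 when each library was left out in turn. Chac2, its constitutive paralog, had 6.23 to 8.09 FPKM against 4.65 to 7.26, with overlap and a log2 fold change of 0.19 (FDR 0.803).

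Chac1 and Slc7a11 are among the known targets of ATF4, the transcription factor of the integrated stress response. Their log2 fold changes from counts were 0.56 and 0.48, and that of Slc7a11 was 0.06 on log2(FPKM + 1). The part of ATF4 in these values was not tested. Whether the other regulators are ATF4 targets was not examined. The 250 bases before the start of Chac1 and Slc7a11 in RefSeq (GRCm38.p6) are shown because both hold TGATGNAA. These are the letters of a site that ATF4 can bind with a C/EBP partner, searched on both strands. The capitals mark the letters found. In Chac1 (chr2:119350992-119351241, plus strand) 1 match lies 193 to 186 bases before the start on the opposite strand. In Slc7a11 (chr3:50443614-50443863, minus strand) 1 match lies 66 to 59 bases before the start on the gene's strand and another 47 to 40 bases before it on the opposite strand.
Chac1: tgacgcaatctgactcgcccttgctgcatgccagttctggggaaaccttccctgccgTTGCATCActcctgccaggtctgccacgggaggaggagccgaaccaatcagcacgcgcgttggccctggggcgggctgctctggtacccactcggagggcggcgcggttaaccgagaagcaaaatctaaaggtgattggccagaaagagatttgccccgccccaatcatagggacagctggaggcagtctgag
Slc7a11: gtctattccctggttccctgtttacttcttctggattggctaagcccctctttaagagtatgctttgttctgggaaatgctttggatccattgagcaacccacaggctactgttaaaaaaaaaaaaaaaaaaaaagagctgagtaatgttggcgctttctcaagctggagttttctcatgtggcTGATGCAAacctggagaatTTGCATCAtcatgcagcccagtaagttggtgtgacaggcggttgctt
RefSeq gave 13 windows for the 8 regulators, and these were the 2 of 13 with the letters, while 3.45% of 32851 promoter windows of the same length held them. A match in the letters is a description of the sequence and no measurement of binding.

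Atf4 itself had 125, 125 and 128 FPKM in Ptpn6+/mev and 113, 105 and 102 in wild-type kidneys. Each Ptpn6+/mev kidney was above each wild-type kidney, but the log2 fold change of 0.17 did not pass the test (SE 0.08, unadjusted p = 0.070, FDR 0.451 in edgeR). Of 15 further targets of ATF4, 0 were called. An unadjusted p under 0.05 was found for 1 on the higher side and 1 on the lower, against 5.53% and 6.71% of all tested genes. Of the 15 values, 12 lay above 0, beside 6455 of 13036 over all tested genes, and the list median was 0.17. Phgdh, the first enzyme of serine synthesis, had 47.3, 46.6 and 43.1 FPKM against 23.7, 26.7 and 36.0, with no overlap and a log2 fold change of 0.60 (SE 0.15, FDR 0.155 in edgeR's quasi-likelihood test, 0.0194 in its exact test and 0.0234 in DESeq2). Psat1, the transaminase of the same pathway, named after its values were seen, lay the other way, with 74.6, 60.3 and 68.0 FPKM against 74.8, 138 and 75.8 and a log2 fold change of -0.60 (unadjusted p = 0.0509, FDR 0.411), or -0.18 without wild-type replicate 2. Trib3, a pseudokinase induced by ATF4, had 5.17 to 5.98 FPKM against 3.05 to 4.74, with no overlap and a log2 fold change of 0.36 (FDR 0.508). Asns, asparagine synthetase, and Ddit3, the stress factor CHOP, overlapped and had log2 fold changes of 0.21 and 0.17. The gene on the lower side was Shmt2, mitochondrial serine hydroxymethyltransferase, named after its values were seen, at -0.39 (FDR 0.224).

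Acsl4 and Lpcat3 act in sequence, ACSL4 activating arachidonic and adrenic acid and LPCAT3 placing them into phospholipids. Acsl4 (chrX:142317993-142390535, minus strand) had 16.01, 12.01 and 14.5 FPKM in Ptpn6+/mev and 13.9, 36.1 and 14.0 in wild-type kidneys. One library made the group means differ, since wild-type replicate 2 lay 1.47 above the median of the other 5 libraries on the log2 CPM scale while each of the other 5, compared in the same way, lay within 0.26. The log2 fold change was -0.68, with a 95% interval from -1.57 to 0.20 (FDR 0.543, edgeR), and -0.005 (FDR 0.987) without that library. The SD of log2 CPM over the 6 libraries was 0.62 for Acsl4, the highest of the 8, and 0.11 to 0.47 for the others. The 3 genes whose centred log2 CPM followed Acsl4 most closely, by mean absolute difference over the 6 libraries, were Cpt1b (0.07), Nampt (0.109) and Chuk (0.115). In each of them wild-type replicate 2 was the highest library as well, for example 43.0 FPKM for Nampt against 14.7 to 16.7 in the other 5. The same library had summed FPKM of 75.8 for endothelial and 104.5 for macrophage markers, against 147 to 167 and 158 to 261 in the others. For fibroblast markers it had 50.8 against 139.7 to 241.5. Of 6 distal nephron markers it was the highest library for 2 and the lowest for 0. Those 2 were Aqp2, at 431 FPKM against 122 to 228, and Calb1, at 45.6 against 14.1 to 28.0. The part of any of these markers in the Acsl4 value was not tested.

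**Figure D4:**
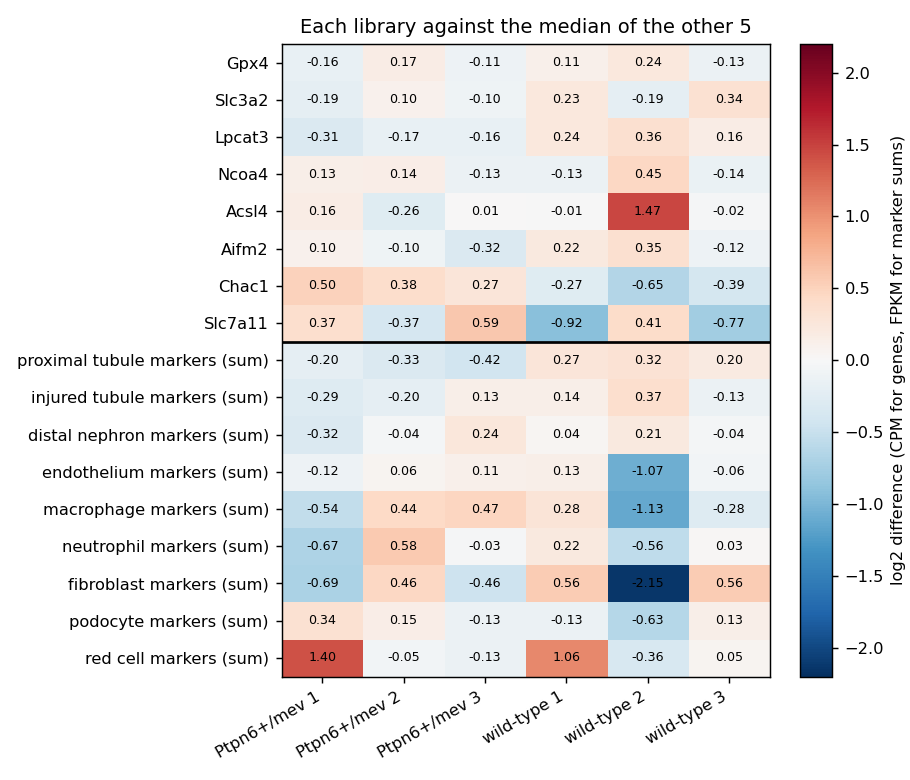
Log2 difference of each library from the median of the other 5, for the 8 regulators (upper rows, CPM) and for the summed FPKM of each marker list (lower rows), with the value printed in each cell. Wild-type replicate 2 holds the largest regulator value, 1.47 for Acsl4, together with -1.07, -1.13 and -2.15 for endothelial, macrophage and fibroblast markers. Its values are 0.32, 0.37 and 0.21 for proximal tubule, injured tubule and distal nephron markers. For neutrophil, podocyte and red cell markers they are -0.56, -0.63 and -0.36. Lpcat3 is the regulator with negative values in all 3 Ptpn6+/mev and positive values in all 3 wild-type libraries, as the summed proximal tubule markers are.

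None of the other acyl-CoA synthetases was called. Acsl1, the main synthetase for oxidative tissue, had 39.6 to 54.3 FPKM in Ptpn6+/mev and 43.0 to 47.4 in wild-type kidneys, with a log2 fold change of -0.02 (SE 0.13). Acsl3, which supplies monounsaturated acyl-CoA, had 5.15 to 6.84 against 5.99 to 8.54, with -0.28 (FDR 0.605). Acsl5 had 60.0 to 63.5 against 47.7 to 63.2, with 0.17 (FDR 0.800), and 0.47 (FDR 0.0303 in edgeR) without wild-type replicate 2. With a different library left out, its FDR in edgeR reached 0.966. Acsl6 was below the filter. The ratio of Acsl4 to Gpx4 within a library was 0.0152, 0.00989 and 0.0134 in Ptpn6+/mev and 0.0122, 0.0312 and 0.0133 in wild-type kidneys. These overlapped, and the mean log2 ratio differed by -0.44 (exact permutation test, two-sided, p = 0.6), or by -0.01 without wild-type replicate 2.

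Lpcat3 (chr6:124663027-124704418, plus strand) had 84.7, 93.0 and 94.0 FPKM in Ptpn6+/mev and 108, 109 and 103 in wild-type kidneys, means of 90.6 ± 5.11 and 107 ± 3.32 (SD, n = 3 each). The highest Ptpn6+/mev kidney was below the lowest wild-type kidney, as for 6.38% of all tested genes by FPKM and 9.80% by CPM. The log2 fold change was -0.31, a level 1.24-fold higher in wild-type kidneys, with a 95% interval from -0.52 to -0.10 (unadjusted p = 0.00958, FDR 0.221 in edgeR). It kept its sign without each library in turn, from -0.36 to -0.25. The smallest adjusted p it reached was 0.102, in DESeq2, so it was called in none of the alternatives. The 3 genes nearest to it in centred log2 CPM were Aldh9a1 (0.02), Atp9a (0.024) and Sh3tc1 (0.025), with log2 fold changes of -0.32, -0.29 and -0.32. Of the 8 proximal tubule markers, 7 had log2 fold changes below 0, 4 had an unadjusted p under 0.05 on the lower side, against 6.71% of all tested genes, and 1 was called, the anion transporter Slc22a8 at -0.91 (FDR 0.0443, edgeR). Slc5a2 and Slc5a12, tubular cotransporters, stood at -0.04 and 0.01. The summed FPKM of the 8 was 852.7 to 991.6 in Ptpn6+/mev and 1142 to 1238 in wild-type kidneys. Its largest terms, Slc27a2 and Slc34a1 with means of 543 and 240 FPKM, each overlapped between the genotypes. By FPKM 3 of the 8 markers did not overlap, all lower in Ptpn6+/mev. The part of the 8 markers in the Lpcat3 value was not tested.

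Lpcat3 is a neighbour of Ptpn6 on chromosome 6, with 16288 bases between the genes in GENCODE M21 (GRCm38). This was noticed after the values were seen. Of 18 tested genes within 250 kb of Ptpn6, 0 were called and 3 had an unadjusted p under 0.05, near the 12.2% of all tested genes, namely Lpcat3, C1rl at -0.81 and Cdca3 at 1.28 on the log2 scale. Their median log2 fold change was -0.09, with 7 above 0 and 11 below. The 3' end of Lpcat3 shares 334 bases with Emg1 on the opposite strand, and Aifm2 shares 596 bases with H2afy2 on the opposite strand. The annotated span of Slc7a11 holds 5 overlapping genes, among them the antisense gene Gm37854 over 8812 bases and Gm37498 on the same strand over 4002 bases. Reads from these stretches may be split between the genes, and for opposite strands cannot be told apart unless strand was used in counting, which is not given in the sources used here. Emg1 had a log2 fold change of 0.07 (FDR 0.808).

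The paralogs of Lpcat3 were far less abundant, with Lpcat1 at 1.83 to 4.59, Lpcat2 at 1.23 to 2.22 and Lpcat4 at 6.30 to 7.65 FPKM over the 6 kidneys. Their log2 fold changes were 0.24, 0.30 and -0.03, with FDRs from 0.715 to 0.964, and Lpcat2b was listed at 0 in every library. Of 15 genes for membrane lipid peroxidation, 12 were tested and 0 were called, and the median was -0.09. On the lower side 2 had an unadjusted p under 0.05, against 6.71% of all tested genes. Por, the cytochrome P450 reductase that can start lipid peroxidation, had 117, 122 and 117 FPKM in Ptpn6+/mev and 155, 134 and 160.1 in wild-type kidneys. It was lower in every Ptpn6+/mev kidney, with a log2 fold change of -0.41 (SE 0.07, unadjusted p = 0.000536, FDR 0.0852 in edgeR), and it was called at -0.41 (FDR 0.0324) without wild-type replicate 2. With a different library left out, its FDR in edgeR reached 0.438. The other gene was Pla2g6, a phospholipase that removes oxidized acyl chains, named after its values were seen, at -0.36 (FDR 0.354). Prdx6, a peroxiredoxin that reduces phospholipid hydroperoxides, stood at -0.01 (SE 0.10). Alox15, the lipoxygenase most often tied to ferroptosis, was at 0 in 5 of 6 libraries and below the filter. Of 5 genes of the monounsaturated arm, which competes for the same positions in phospholipids, 0 were called and 0 had an unadjusted p under 0.05. Scd1, the stearoyl-CoA desaturase of that arm, varied widely, with 9.91, 3.96 and 3.16 FPKM against 8.31, 2.03 and 9.38.

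Aifm2 (chr10:61715263-61739260, plus strand) encodes FSP1, which keeps coenzyme Q reduced and traps lipid radicals without glutathione. It had 17.1, 16.2 and 12.9 FPKM in Ptpn6+/mev and 17.1, 17.8 and 15.6 in wild-type kidneys. The groups overlapped, with a log2 fold change of -0.23 and a 95% interval from -0.54 to 0.09 (FDR 0.583, edgeR). It was -0.13 without wild-type replicate 2 and -0.14 without Ptpn6+/mev replicate 3. Its paralog Aifm1, a mitochondrial flavoprotein, had 46.1 to 54.8 FPKM against 49.4 to 53.2 and a log2 fold change of -0.09 (SE 0.09). Aifm3 had 1.32 to 2.1 against 1.35 to 2.34, with -0.39 (FDR 0.657).

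Of 16 genes of the radical-trapping arms outside GPX4, 0 were called, and the median was -0.14. An unadjusted p under 0.05 was found for 3 on the lower side and 0 on the higher, against 6.71% and 5.53% of all tested genes. Nqo1, a quinone reductase induced by NRF2, had 132, 89.7 and 94.3 FPKM in Ptpn6+/mev and 156, 230.3 and 149 in wild-type kidneys. The groups did not overlap, and the log2 fold change was -0.84 (SE 0.23, unadjusted p = 0.00581, FDR 0.187 in edgeR), or -0.56 (FDR 0.0969) without wild-type replicate 2. It was called by edgeR's exact test (FDR 0.0226) and by DESeq2 (FDR 0.0142). Dhodh, which reduces coenzyme Q in mitochondria, and Gch1, the first enzyme of tetrahydrobiopterin synthesis, had log2 fold changes of -0.20 and -0.06 with FDRs of 0.590 and 0.932. The remaining 2 genes on the lower side, named after their values were seen, were Coq9 at -0.45 and Coq5 at -0.19, both of coenzyme Q synthesis.

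Ncoa4 (chr14:32159865-32179855, plus strand) is the receptor that delivers ferritin to lysosomes and so frees its iron. It had 57.1, 52.8 and 55.0 FPKM in Ptpn6+/mev and 50.8, 51.9 and 52.3 in wild-type kidneys. By FPKM each Ptpn6+/mev kidney was above each wild-type kidney, one of 3 regulators whose FPKM did not overlap, against 20.4% of all tested genes. By counts it was not so, with 1244, 1256 and 1193 in Ptpn6+/mev and 1159, 1501 and 1332 in wild-type kidneys. The log2 fold change from counts was -0.07, with a 95% interval from -0.39 to 0.24 (FDR 0.895, edgeR), while log2(FPKM + 1) gave 0.09 (FDR 0.697, limma). The direction of Ncoa4 thus changed with the unit, and the length that links the units was longest in wild-type replicate 2, at 2634 bases. Without that library the counts gave 0.10 (FDR 0.582).

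One of the Ncoa4 promoter windows (chr14:32165539-32165788, plus strand, RefSeq GRCm38.p6) is shown because it was the 1 of 13 windows with TGACNNNGC, the core of the antioxidant response element bound by NRF2, on either strand. The match, in capitals, lies 44 to 36 bases before the start.
Ncoa4: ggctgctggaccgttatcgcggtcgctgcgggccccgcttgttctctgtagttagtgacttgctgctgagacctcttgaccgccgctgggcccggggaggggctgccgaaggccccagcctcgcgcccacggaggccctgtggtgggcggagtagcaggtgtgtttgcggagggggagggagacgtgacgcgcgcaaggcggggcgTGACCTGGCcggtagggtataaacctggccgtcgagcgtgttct
These letters occurred in 10.2% of the 32851 windows, and no regulator window held both motifs.

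Of 20 genes for iron storage, uptake and export, 0 were called, and the median was -0.06. An unadjusted p under 0.05 was found for 1 on the higher side and 5 on the lower, against 5.53% and 6.71% of all tested genes. Fth1, the ferritin heavy chain that NCOA4 binds, had 12093, 13110.5 and 12503 FPKM in Ptpn6+/mev and 14584, 15289 and 15168 in wild-type kidneys. It was lower in every Ptpn6+/mev kidney, with a log2 fold change of -0.33 (SE 0.08, unadjusted p = 0.00319, FDR 0.150 in edgeR), and it was called by DESeq2 (FDR 0.0230) but not by edgeR's exact test (FDR 0.160). Ftl1, the ferritin light chain, overlapped between the groups and stood at -0.09 (SE 0.09). Hmox1, heme oxygenase 1, which releases iron from heme, had 409, 351 and 361 FPKM against 496, 466 and 552. Its groups did not overlap, and its log2 fold change of -0.50 (SE 0.09, FDR 0.0873) passed the threshold without wild-type replicate 2 (FDR 0.0303, edgeR). With a different library left out, its FDR in edgeR reached 0.438. Slc40a1, the iron exporter ferroportin, had a log2 fold change of -0.39 (SE 0.15, FDR 0.335), and Tfrc, the transferrin receptor, -0.33 (FDR 0.572), which became -0.04 without wild-type replicate 2.

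A pair of iron genes named after their values were seen had larger differences. Trf, transferrin, with the smallest p of all 105 tested pathway genes, had 7.74, 5.66 and 6.05 FPKM in Ptpn6+/mev against 13.02, 16.2 and 12.8 in wild-type kidneys, a log2 fold change of -1.20 (SE 0.20, FDR 0.0703 in edgeR). Steap3, the reductase that lets transferrin iron leave the endosome, had 8.69, 7.25 and 7.96 against 4.51, 4.37 and 5.16, a log2 fold change of 0.73 (SE 0.14, FDR 0.0918). Neither gene overlapped between the genotypes. Both passed the threshold without wild-type replicate 2, with FDRs of 0.0253 and 0.0431. With a different library left out, their FDRs in edgeR reached 0.382 and 0.425. The remaining one on the lower side was Aco1, the iron regulatory protein that doubles as an aconitase, at -0.22.

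None of 9 transcription regulators of these pathways was called or had an unadjusted p under 0.05. Nfe2l2, the gene for NRF2, had 61.0 to 82.4 FPKM over the 6 kidneys and a log2 fold change of -0.20 (FDR 0.651), and -0.002 without wild-type replicate 2. Trp53 and Atf3, both reported to repress Slc7a11, stood at 0.04 and 0.05. Of 6 transcripts used as tissue readouts of ferroptosis, 0 were called. Only 1 had an unadjusted p under 0.05, on the higher side, against 5.53% of all tested genes. That was the small heat shock protein Hspb1, named after its values were seen, with 226, 213 and 227 FPKM against 136, 139 and 184 and a log2 fold change of 0.47 (FDR 0.159 in edgeR's quasi-likelihood test, 0.0466 in its exact test and 0.0298 in DESeq2). Ptgs2, cyclooxygenase 2, was low and overlapped at 0.52 to 0.97 against 0.83 to 1.03 FPKM, with a log2 fold change of -0.49 (FDR 0.574). Sat1, which acetylates polyamines, was at -0.08 with all libraries and at 0.30 (FDR 0.176, edgeR) without wild-type replicate 2, its highest library at 428 FPKM.

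Over the 9 lists together, 105 of 108 genes were tested. None was called in edgeR's quasi-likelihood test, 3 had an unadjusted p under 0.05 on the higher side and 18 on the lower, beside 5.53% and 6.71% of all tested genes, and the median log2 fold change was -0.08 beside -0.002 over all tested genes. In 9 of these genes the FPKM of every Ptpn6+/mev kidney was above every wild-type kidney and in 13 below, against 14.0% and 6.38% of all tested genes. Without wild-type replicate 2, 2 genes passed on the higher side, Selenop and Steap3, and 4 on the lower, Por, Hmox1, Trf and Mgst1. The share over all tested genes was then 1.77%, up from 0.138% with all 6 libraries. The exact test of edgeR called 8 of the 105, against 2.99% of all tested genes, with Steap3, Phgdh and Hspb1 on the higher side and Por, Hmox1, Trf, Mgst1 and Nqo1 on the lower. DESeq2 called the same 8 and Fth1, 9 in all, against 3.04%.

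**Figure D5:**
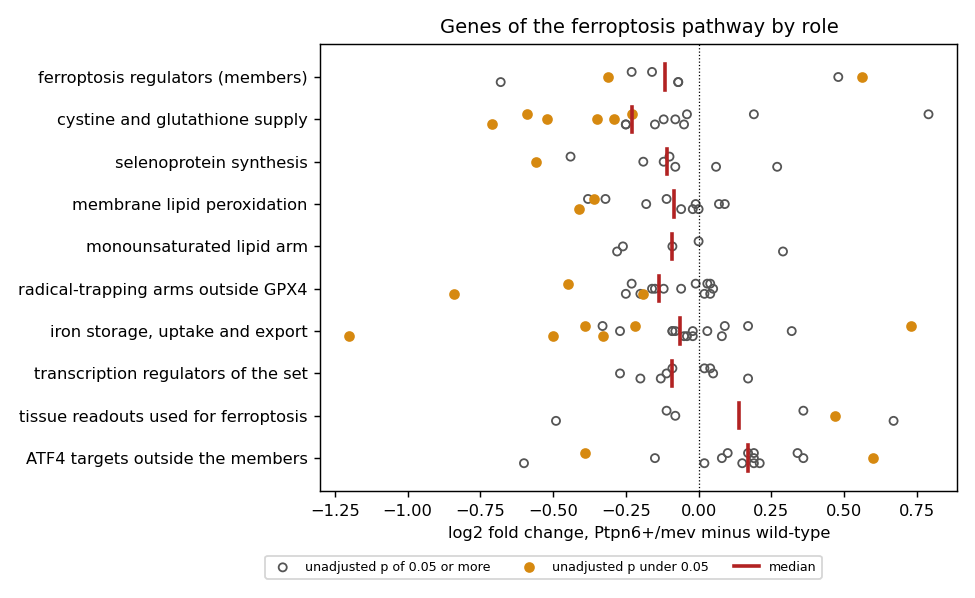
Log2 fold change, Ptpn6+/mev minus wild-type, of each tested gene of the regulators and of the 9 pathway lists, with the list median as a red line and genes with an unadjusted p under 0.05 in edgeR filled. Filled points lie mostly below 0 in the glutathione, radical-trapping and iron lists, and the medians of the tissue readouts and the ATF4 targets, 0.14 and 0.17, are the only ones above 0.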

How the data were processed

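Poly-A mRNA of 6 kidneys was sequenced. The authors removed adaptor and low-quality sequence, aligned reads to Ensembl release 90 GRCm38.p5 with TopHat (2.1.0 in the methods, TopHat2 2.0.3.12 in the submitters' processing notes) and took FPKM from Cufflinks, and they deposited, per gene and library, an estimated count beside its FPKM. The notes also name Bowtie2 and RSEM, without a role. No column of sample values was left unused. Groups came from the sample titles, each library being 1 mouse. Replicates differed by more than sampling noise (chi-square per degree of freedom 6.48 to 45.3).

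Counts, fractional in 1744 genes and in 1 regulator, Aifm2, were rounded. edgeR 4.0.16 (R 4.3.3) was run with TMM, filterByExpr and the quasi-likelihood F test, and 13036 genes were tested with Benjamini-Hochberg adjustment. Log2 CPM used a prior count of 2. Exact permutation tests of ratios were two-sided. Alternatives were DESeq2 1.42.0 (its Wald test, and its size factors in edgeR), edgeR's exact test, limma 3.58.1 on log2(FPKM + 1) and log2(FPKM + 0.1), no filter, a minimum of 10 counts throughout, a block on the replicate number, and leaving out each library. Figures used Python 3.11.15, numpy 2.4.6, pandas 2.3.3 and matplotlib 3.10.9. Positions are from GENCODE M21 (GRCm38), promoters from RefSeq (GRCm38.p6).

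The regulators and all lists were chosen with earlier results of these data known. Named genes were the 8 regulators, Ptpn6, the paralogs and light chains, examples of each list fixed by role, list genes with an FDR under 0.05, and the 3 genes nearest to Lpcat3 (smallest p) and to Acsl4 (largest spread). Others are said to have been named after their values were seen.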

Additional observations from a re-analysis of the deposited data

How the results depend on the processing

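No regulator was called in any of the 14 alternatives, which called from 1 to 390 of all tested genes. Of the regulators' 112 log2 fold changes, 106 kept their sign, among them Acsl4 at -0.005 without wild-type replicate 2. The other 6 were Gpx4, at 0.003 without wild-type replicate 2 and 0.002 in both limma analyses of FPKM, and Ncoa4, at 0.10 without wild-type replicate 2 and 0.09 in both limma analyses. Leaving out 1 library moved Gpx4 from -0.14 to 0.003 and Ncoa4 from -0.15 to 0.10. The limma analyses used FPKM as deposited, without the TMM scaling applied to the counts. By FPKM, 14.0% of all tested genes had every Ptpn6+/mev kidney above every wild-type kidney and 6.38% below. By CPM with TMM these shares were 9.64% and 9.80%. The part of this scaling, or of single libraries, in the changes of sign was not tested. The median over the regulators ranged from -0.17 to -0.001 with 1 library left out.

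The number of genes called, 18, became 52 with no filter on low counts, 390 with edgeR's exact test and 388 with DESeq2, and ranged from 1 to 231 with 1 library left out, the highest without wild-type replicate 2 (1 without Ptpn6+/mev replicate 3, 4 without replicate 1, 9 without wild-type replicate 1 and 65 without replicate 3). Of the pathway genes outside the regulators, 0 called became 1 with no filter, 8 with the exact test and 9 with DESeq2, and 0 to 6 with 1 library left out. Their median ranged from -0.087 to -0.043, nearest 0 without wild-type replicate 2. The ratio differences ranged from -0.69 to -0.01 for Acsl4 to Gpx4 and from 0.00 to 0.46 for Slc7a11 to Slc3a2.

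With the replicate number as a block, 1 gene was called, no regulator among them, and the regulators' log2 fold changes kept their sign. After removal of the group means, same-numbered libraries correlated at -0.144, -0.184 and -0.13, and none correlated best with its own number. With 3 libraries per group these correlations cannot decide whether the numbers pair the mice.

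Depth limits Slc7a11 and Chac1, which rest on 27 to 66 counts per library, and 3 mice per group limit every regulator.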
